A study of Mus musculus with 4 samples.

Results

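The genes described here are 37 Wnt ligands, frizzled receptors and secreted Wnt antagonists of the mouse autosomes, chosen by name from 21418 autosomal protein-coding genes. They comprise 19 Wnt ligands, 10 frizzled receptors (Fzd1 to Fzd10), and 8 antagonists of the Dickkopf (Dkk1 to Dkk4) and secreted frizzled-related protein (Sfrp1, Sfrp2, Sfrp4, Sfrp5) families. Further secreted antagonists, such as Wif1 and Frzb, were counted with the other genes of the pathway.

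DNA methylation was mapped by whole-genome bisulfite sequencing (WGBS), in which unmethylated cytosines are converted and read as thymine, in epithelial cells sorted from mouse colon. The 4 groups were intestinal stem cells (ISC P0 and ISC P21) and differentiated epithelial cells (Diff P0 and Diff P21), from newborns (P0) and from mice at postnatal day 21 (P21), all of strain C57. All 4 groups came from crosses of Lgr5-EGFP-CreER knock-in mice, in which the endogenous Lgr5 regulatory sequences drive the reporter, with wild-type C57 mice, so the ISCs are EGFP-positive cells and the differentiated cells are EpCAM-positive, EGFP-negative cells. The paper describes mosaic expression from this allele, with some EGFP-negative crypts. The EGFP-negative cells may thus include unlabelled stem cells, and their share was not measured. DNA was taken from pooled litters at P0 and from pooled reporter-positive offspring at P21, with 1 library per group. There were thus no replicates, the tests compare libraries rather than conditions, and all intervals cover counting error only.

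Wnt ligands are secreted lipid-modified proteins that bind frizzled receptors together with Lrp co-receptors, which stabilises β-catenin and switches on target genes through TCF/LEF factors. Dickkopf proteins such as Dkk1 block the co-receptors, whereas secreted frizzled-related proteins bind the ligands outside the cell. In the intestine this signal maintains the stem cells at the crypt base, and much of the ligand comes from Paneth cells in the small intestine and from the surrounding mesenchyme, so several of these genes are known to be used mainly by cells other than the sorted epithelium.

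Each library held between 1023427645 and 1188114423 methylation calls, and the median number of calls in a tested 200-bp bin of the 37 genes was 69.0 in ISC P0, 74.0 in ISC P21, 120.0 in Diff P0 and 98.0 in Diff P21. Of 2860 bins of these genes with at least 2 CpGs, 2674 (93.5%) had at least 10 calls in all libraries and were tested, against 82.5% over the autosomes. Promoters of epithelial marker genes were at 0 to 6.22% in every library and those of 5 leukocyte genes at 64.7 to 89.0%. The epithelial promoters held 32 to 129 CpGs and the leukocyte ones 19 to 45, so these sets were not matched for CpGs. Promoters of 5 stem cell genes were at 0.226 to 6.90% over all libraries. Mesenchymal markers ranged from 1.09% to 51.8%, and 3 endothelial ones from 1.75% to 80.4%. These are bulk levels, so a smaller share of methylated cells and a lower level in every cell cannot be told apart.

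Sequences of 5 bins called between P0 and P21 in ISCs, each from a run of adjacent called bins, and of 1 upstream stretch are given first, as mm9 reference on the strand of the gene, 5′ to 3′, with every CpG in capitals, since the CpG is the site at which methylation was read. The Wnt5b bin lies in intron 1 (chr6:119436201-119436400, minus strand) and had the largest loss of the members in ISCs. The Wnt10b bin lies in coding exon 4 (chr15:98604601-98604800, minus strand), the Fzd3 bin in intron 1 (chr14:65880001-65880200, minus strand), the Wnt5a bin in intron 1 (chr14:29322001-29322200, plus strand), and the Fzd2 bin within its single coding exon (chr11:102467401-102467600, plus strand). These 4 bins gained methylation in ISCs. The Dkk4 stretch is the 200 bases upstream of its start (chr8:23734315-23734514, plus strand), and is shown because this promoter was the most methylated of the 37.
Wnt5b: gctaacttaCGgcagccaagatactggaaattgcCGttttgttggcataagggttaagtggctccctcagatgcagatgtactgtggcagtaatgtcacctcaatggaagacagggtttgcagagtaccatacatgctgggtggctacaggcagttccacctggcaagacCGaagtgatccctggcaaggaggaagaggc
Wnt10b: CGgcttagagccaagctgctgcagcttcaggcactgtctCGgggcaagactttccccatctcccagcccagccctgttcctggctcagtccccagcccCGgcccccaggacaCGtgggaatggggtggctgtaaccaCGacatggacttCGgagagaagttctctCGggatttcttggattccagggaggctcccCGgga
Fzd3: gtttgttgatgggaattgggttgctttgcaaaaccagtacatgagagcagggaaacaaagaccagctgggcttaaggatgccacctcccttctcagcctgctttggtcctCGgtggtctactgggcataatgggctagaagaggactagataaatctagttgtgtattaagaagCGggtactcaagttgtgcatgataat
Wnt5a: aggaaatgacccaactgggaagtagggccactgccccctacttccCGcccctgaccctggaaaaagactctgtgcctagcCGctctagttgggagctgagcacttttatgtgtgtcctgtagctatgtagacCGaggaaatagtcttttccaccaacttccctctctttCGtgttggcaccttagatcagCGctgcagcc
Fzd2: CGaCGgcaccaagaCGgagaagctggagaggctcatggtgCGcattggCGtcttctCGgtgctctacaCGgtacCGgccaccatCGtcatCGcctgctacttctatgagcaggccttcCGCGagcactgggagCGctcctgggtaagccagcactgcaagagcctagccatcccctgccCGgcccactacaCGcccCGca
Dkk4: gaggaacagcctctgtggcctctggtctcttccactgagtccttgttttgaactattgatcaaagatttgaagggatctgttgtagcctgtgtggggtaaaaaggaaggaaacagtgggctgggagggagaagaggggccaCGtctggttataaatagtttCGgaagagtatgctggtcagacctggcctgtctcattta

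The Fzd2 bin held 16 CpGs and the Wnt10b bin 8, whereas the Wnt5a bin held 5, the Wnt5b bin 3 and the Fzd3 bin 2. The Dkk4 stretch held 2 CpGs. It also held 1 match to the TCF/LEF core motif ATCAAAG (searched on both strands, no overlap with another motif), which was found in the 200 upstream bases of 472 of the 21418 genes (2.20%) and of 3 of the 37 (Wnt8a, Wnt11 and Dkk4).

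Most promoters of the Wnt genes were unmethylated in all 4 libraries. Over the 2 kb centred on the transcription start, 31 of the 37 were below 10% in ISC P0, 30 in ISC P21, and 32 in both differentiated libraries. In ISC P0 that was 83.8% of the set, against 46.4% of all genes. The median level of the 37 was 4.33% in ISC P0, 3.71% in ISC P21, 1.72% in Diff P0 and 2.92% in Diff P21, against 12.2%, 12.05%, 8.31% and 8.86% over all genes. As a mean of bin levels the medians of the 37 were 7.75%, 6.19%, 5.54% and 7.07%, against 21.2 to 21.5% over all genes. With promoters of 500 bp to either side of the start they were 0.81%, 0.95%, 0.59% and 1.02%, against 1.99 to 2.96%. The frizzled promoters were the lowest, with medians between 0.66% and 0.92%. The promoters of the Wnt genes were also rich in CpGs, with a median of 120 CpGs against 62 for all genes, and 34 of 37 (91.9%, against 59.0% of all genes) held a bin in a CpG island (CGI), defined here by 500-bp windows with at least 25 CpGs.

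**Figure D1:**
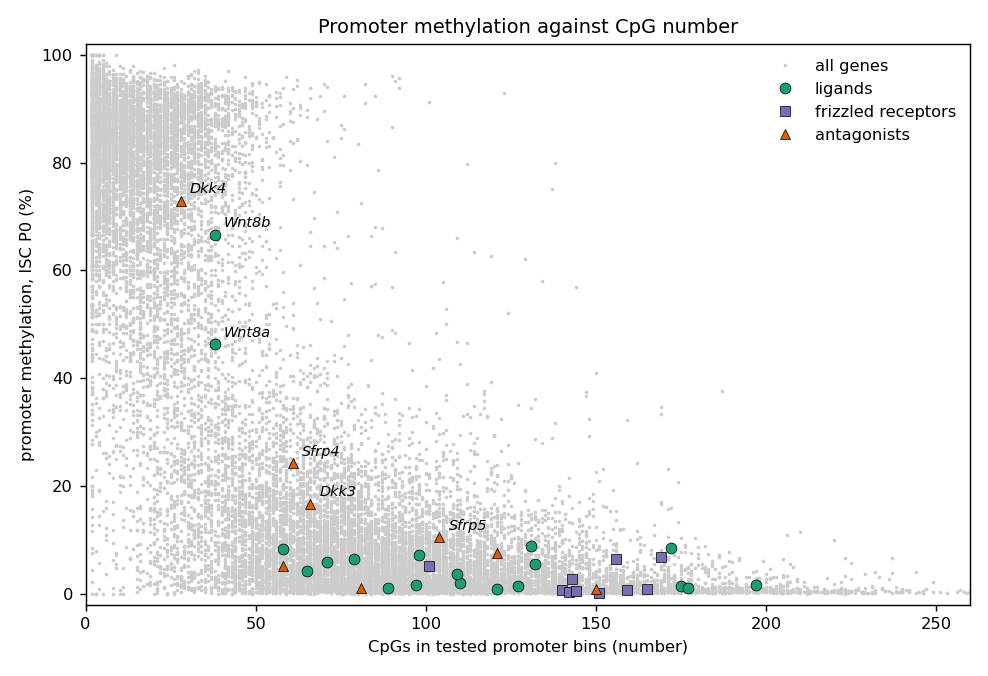
Promoter methylation in ISC P0 (percent of calls, y axis) against the number of CpGs in the tested promoter bins (x axis); grey points are all genes, and coloured symbols are the 37 Wnt genes by class. Dkk4, Wnt8b and Wnt8a sit at few CpGs and above 40%, and the frizzled receptors lie at the bottom right.

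A few members departed from this pattern. Dkk4, an antagonist known as a target of the pathway it inhibits, was at 72.9% in ISC P0 (95% Wilson interval 69.1 to 76.5), 76.2% in ISC P21, 75.4% in Diff P0 and 77.6% in Diff P21. Wnt8b was at 66.7% and 69.4% in ISCs and at 68.3% and 63.7% in differentiated cells. Neither promoter was called as changed with age in either population. Sfrp4 and Dkk3 had intermediate promoters, with 24.3% and 16.8% in ISC P0.

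The Wnt8a promoter was the only one of the 37 called higher at P21 in ISCs. Wnt8a, a ligand known from the early embryo, was at 46.3% (42.5 to 50.1) in ISC P0 and at 62.5% (59.2 to 65.7) in ISC P21. In differentiated cells it was at 40.6% (37.5 to 43.8) at P0 and at 62.3% (58.8 to 65.6) at P21. The intervals of the P0 and P21 libraries did not overlap in either population, and the adjusted p was 1.4e-08 and 7.2e-17 (Fisher's exact test, 2-sided, Benjamini-Hochberg over all promoters). With the calls of each bin divided by its number of CpGs, this promoter was no longer called in ISCs but was in differentiated cells. Sfrp4 was called in differentiated cells, from 15.4% to 25.5% (adjusted p = 4.6e-13, Fisher's exact test), and was at 24.3% and 28.8% in ISCs (adjusted p = 0.055).

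Region levels pool all calls of a region, so they also move where the libraries cover its bins unevenly. Differences were therefore also taken within each bin and averaged over the bins of the region (Cochran-Mantel-Haenszel test), a comparison added after seeing the data. Within bins, the Wnt8a promoter still rose by 14.1 points (SE 2.39) in ISCs and 21.4 points (SE 2.29) in differentiated cells, whereas Sfrp4 in differentiated cells came to 7.47 points (SE 1.03), below the limit of 10 points. Calls of promoters, over all genes, were made for 1.79% as gains and 2.45% as losses in ISCs, and for 1.57% and 2.20% in differentiated cells; gains within bins were 1.46% and 1.21%. With 1 of 37 promoters called in ISCs and 2 in differentiated cells, the members were not far from these shares.

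**Figure D2:**
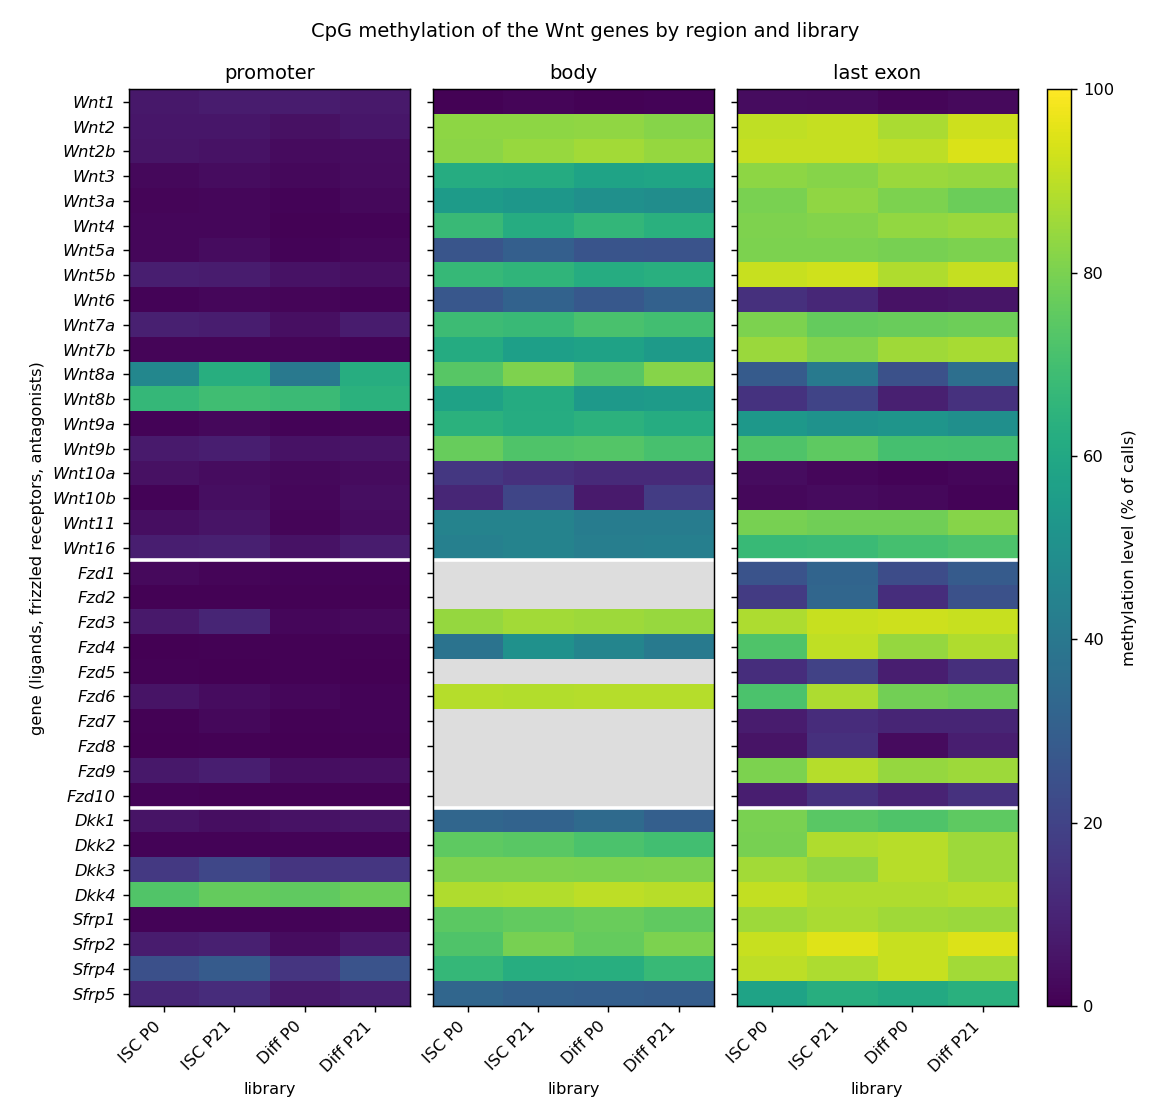
Methylation level (percent of calls, colour scale from 0 to 100) of the promoter, body and last exon of each of the 37 genes (rows) in the 4 libraries (columns); grey marks regions with no tested bin. Promoters are dark except for Wnt8a, Wnt8b and Dkk4. The 4 columns of a gene are similar in most rows.

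Bodies were methylated in most members, with medians of 65.2% in ISC P0, 62.1% in ISC P21, 62.4% in Diff P0 and 62.5% in Diff P21 over the 30 genes with tested body bins, against 80.2 to 80.9% over all genes. Last exons had medians of 79.6%, 78.3%, 78.3% and 77.5%, but those of the frizzled genes were 21.5%, 32.6%, 18.1% and 26.7%. A CGI bin lay in the last exon of 11 ligands, 7 frizzled genes and 0 antagonists, 18 of 37 genes (48.6%), against 7.72% of all genes.

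Around the start, the low block (adjacent bins below 20%, allowing 1 bin above) had a median width of 2600 bp in ISC P0, Diff P0 and Diff P21 and of 2400 bp in ISC P21, against 1000 bp over all genes in each library. Genes without a block count as 0 bp there, 35.3% of all genes in ISC P0 against 5.41% of the members. Over the 13586 genes with a block in every library the median was 1600 bp in each library. Wnt1, Wnt3 and Fzd5 had blocks of 4800 bp or more in every library, whereas Dkk4 and Wnt8b had none. The block was shorter at P21 in 9 of 37 genes in ISCs and longer in 3. Over all genes it was shorter in 11.2% and longer in 13.9%. Over the 13586 genes with a block in every library it was shorter in 16.3% and longer in 20.2%. Wnt1, the ligand that gave the family its name, had an unmethylated body, with 0.503% (0.255 to 0.988) of body calls methylated in ISC P0 and 1.27% (0.856 to 1.89) in ISC P21.

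Between P0 and P21 methylation was both gained and lost in the members. Of the 2674 bins, 55 were called higher (2.06%) and 33 lower (1.23%) in ISC P21, at an adjusted p under 0.05 and a difference over 15 points, against 1.07% and 1.48% of all 4076373 bins. In differentiated cells 51 were higher (1.91%) and 49 lower (1.83%), against 0.992% and 1.86% of all bins. The bins of the members held more calls, with medians of 69.0 in ISC P0 and 74.0 in ISC P21 against 55.0 and 58.0 over all bins. In Diff P0 and Diff P21 the medians were 120.0 and 98.0 against 81.0 and 68.0. A bin with more calls is called more easily, and these shares were not matched for depth. The split of gains and losses moved with the settings. At over 30 points, ISCs had 22 gains and 21 losses and differentiated cells 16 and 24 of 2674 bins, against 1.22% and 1.06% of all bins called in either direction. Differentiated cells had 43 gains and 22 losses with at least 4 CpGs per bin, and 61 and 39 with bins shifted by 100 bp. At over 15 points with no test, 358 and 298 member bins passed, against 13.5% and 12.1% of all bins, so the members were then below the share of all bins. In CGI bins of the members, 11 of 506 gained in ISCs and 0 lost, and in differentiated cells 11 gained and 1 lost, against 1.38% and 1.22% of all CGI bins gaining. Of the 11 gains in ISCs, 8 were among 129 CGI bins of frizzled genes, and the ligands had 2 among 329 (0.608%), below the share of all CGI bins. All of these calls are from Fisher's exact test with Benjamini-Hochberg adjustment over all bins. The genes with no called bin in any of the 4 comparisons were 4, namely Wnt1, Wnt16, Dkk1 and Sfrp5. They held from 16 (Dkk1) to 37 (Wnt16) tested bins, and the share of all genes with no called bin was not counted. Neighbouring CpGs on a read are not independent, and the test treats them as separate calls. With the calls of each bin divided by its number of CpGs, 1 member bin was called in ISCs, as a loss, and 4 were in differentiated cells, 1 gain and 3 losses, against 0.077% and 0.209% of all bins. Under that setting the members were not above the share of all bins in either population.

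Most bins called in ISCs moved in the same direction in differentiated cells. Of the 55 bins with a gain in ISCs, 50 were higher and 20 (36.4%) were called higher in differentiated cells. Of the 33 with a loss, 32 were lower and 17 (51.5%) were called lower. Over all bins these called shares were 23.7% and 45.4%. No bin was called in opposite directions. The shares of bins moving in the same direction, or called in opposite directions, were not counted over all bins.

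**Figure D3:**
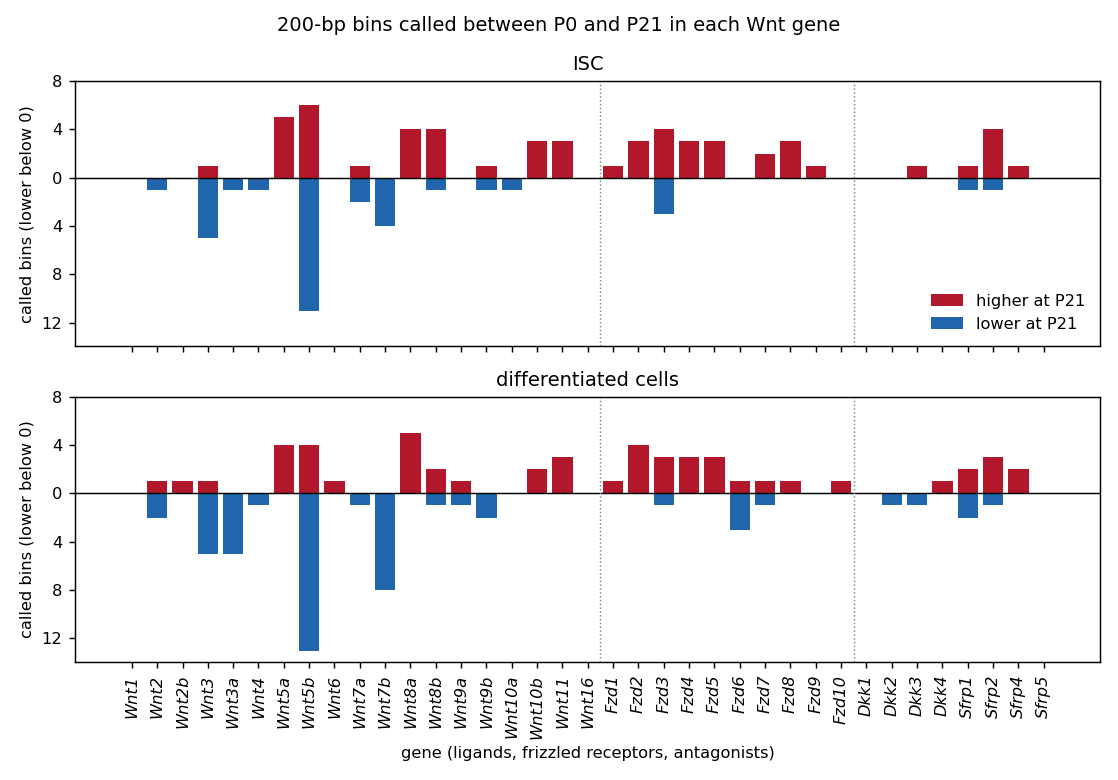
Number of 200-bp bins called higher (red, above 0) or lower (blue, below 0) at P21 than at P0 in each of the 37 genes, in ISCs (top) and differentiated cells (bottom). Wnt5b has the most losses in both populations, and the frizzled receptors have mostly gains.

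Among the ligands, 28 of 1781 bins gained and 28 lost methylation in ISCs, 1.57% each, against 1.07% and 1.48% of all bins. Bodies held 1442 of these bins and 27 of the losses. In differentiated cells 25 gained (1.40%) and 39 lost (2.19%), against 0.992% and 1.86%. The longest run was in Wnt5b, a ligand of the β-catenin-independent branch, where 6 adjacent bins of intron 1, about 58 kb from the start, lost methylation. Over these 1200 bp the level was 74.4% (70.5 to 78.0) in ISC P0 and 35.1% (31.2 to 39.3) in ISC P21, and 69.8% (66.5 to 73.0) in Diff P0 and 28.8% (25.5 to 32.4) in Diff P21. All 6 were called in ISCs and 5 of them in differentiated cells. In the bin whose sequence is given above, ISCs went from 71.2% of 66 calls to 4.55% of 44 calls, and differentiated cells from 60.4% to 3.75%. Wnt5b also gained at 6 bins in ISCs, beside 11 losses in all. Of these gains 2 were adjacent in the same intron (chr6:119448801-119449200), at 34.1% and 64.6% in ISCs and at 55.0% and 60.5% in differentiated cells. Over the whole body the difference within bins was 0.73 points (SE 0.277) in ISCs and -0.29 points (SE 0.212) in differentiated cells.

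Wnt3, a canonical ligand that Paneth cells make in the small intestine, lost methylation at 5 bins of intron 1 in ISCs. A run of 3 bins (chr11:103662001-103662600) was at 50.0% in ISC P0 and 20.4% in ISC P21, and differentiated cells had 53.5% and 17.6%. Another 2 adjacent bins (chr11:103654601-103655000) were at 63.6% and 25.6% in ISCs and at 60.5% and 17.1% in differentiated cells. Both populations moved down at both sites, whereas the body of Wnt3 as a whole was at 61.8% and 61.3% in ISCs (adjusted p = 0.64, Fisher's exact test). In Wnt7b, 4 bins lost methylation in ISCs and 8 in differentiated cells, and in Wnt9b a bin of intron 1 went from 74.3% to 14.6% in ISCs (adjusted p = 6.7e-12, Fisher's exact test) and from 64.7% to 28.6% in differentiated cells.

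In ISCs, Wnt4 had the greatest fall of a whole ligand body, at 67.7% in ISC P0 and 62.05% in ISC P21 and at 66.1% and 63.5% in differentiated cells. Within bins it was -4.89 points (SE 0.875) in ISCs, under the limit of 10 points.

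Other ligands gained methylation. In Wnt10b, which is known to act on stem and progenitor cells of several tissues, 3 adjacent bins reaching from intron 3 to intron 4 (chr15:98604401-98605000) were at 28.0% (23.4 to 33.0) in ISC P0 and at 69.8% (64.4 to 74.7) in ISC P21. In differentiated cells they were at 26.9% (23.3 to 30.9) and 68.2% (64.2 to 71.9). The body of Wnt10b was called higher in both populations, from 10.9% to 21.0% in ISCs and from 7.05% to 17.7% in differentiated cells. Within bins the rise was 10.02 points (SE 1.10) in ISCs and 7.77 points (SE 0.610) in differentiated cells, so the second was under the limit of 10 points. With bins shifted by 100 bp the pooled rise in ISCs was 8.85 points, also under it, and with at least 20 calls per bin or a limit of 15 points the body was not called in ISCs either. The last exon downstream was below 3% in all 4 libraries.

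Wnt5a, a ligand of the β-catenin-independent branch made largely by mesenchyme, gained methylation in 4 adjacent bins of intron 1 (chr14:29321601-29322400), at 19.8% (17.1 to 22.8) in ISC P0 and 44.3% (40.9 to 47.7) in ISC P21. Differentiated cells were at 26.8% (23.9 to 29.8) and 34.2% (31.4 to 37.2), and 1 of these bins was called in them. In all Wnt5a had 5 called gains in ISCs and 4 in differentiated cells, and 3 of the latter lay outside this run. In the bin shown above, ISCs went from 10.2% to 38.7%, whereas differentiated cells were at 18.3% and 18.5%. The difference between the populations was not tested for this run, but it was for the whole Wnt5a body. There the change in differentiated cells minus that in ISCs was -4.72 points pooled (SE 0.960) and -3.69 points within bins (SE 0.600, Wald chi-square test, adjusted p = 2.6e-07), under the limit of 10 points. Wnt11 gained in 3 bins of intron 3, at 30.3% and 47.5% in ISCs and at 27.2% and 40.3% in differentiated cells. Wnt8a also gained at its last exon, at 28.6% and 41.3% in ISCs and at 24.9% and 36.5% in differentiated cells. Within bins the rise was 12.01 points (SE 2.17) in ISCs and 6.82 points (SE 1.33) in differentiated cells, so that in differentiated cells was under the limit of 10 points. With calls divided by CpGs, and at a limit of 15 points, this exon was called in neither population, and with thinned calls it was called in ISCs alone.

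**Figure D4:**
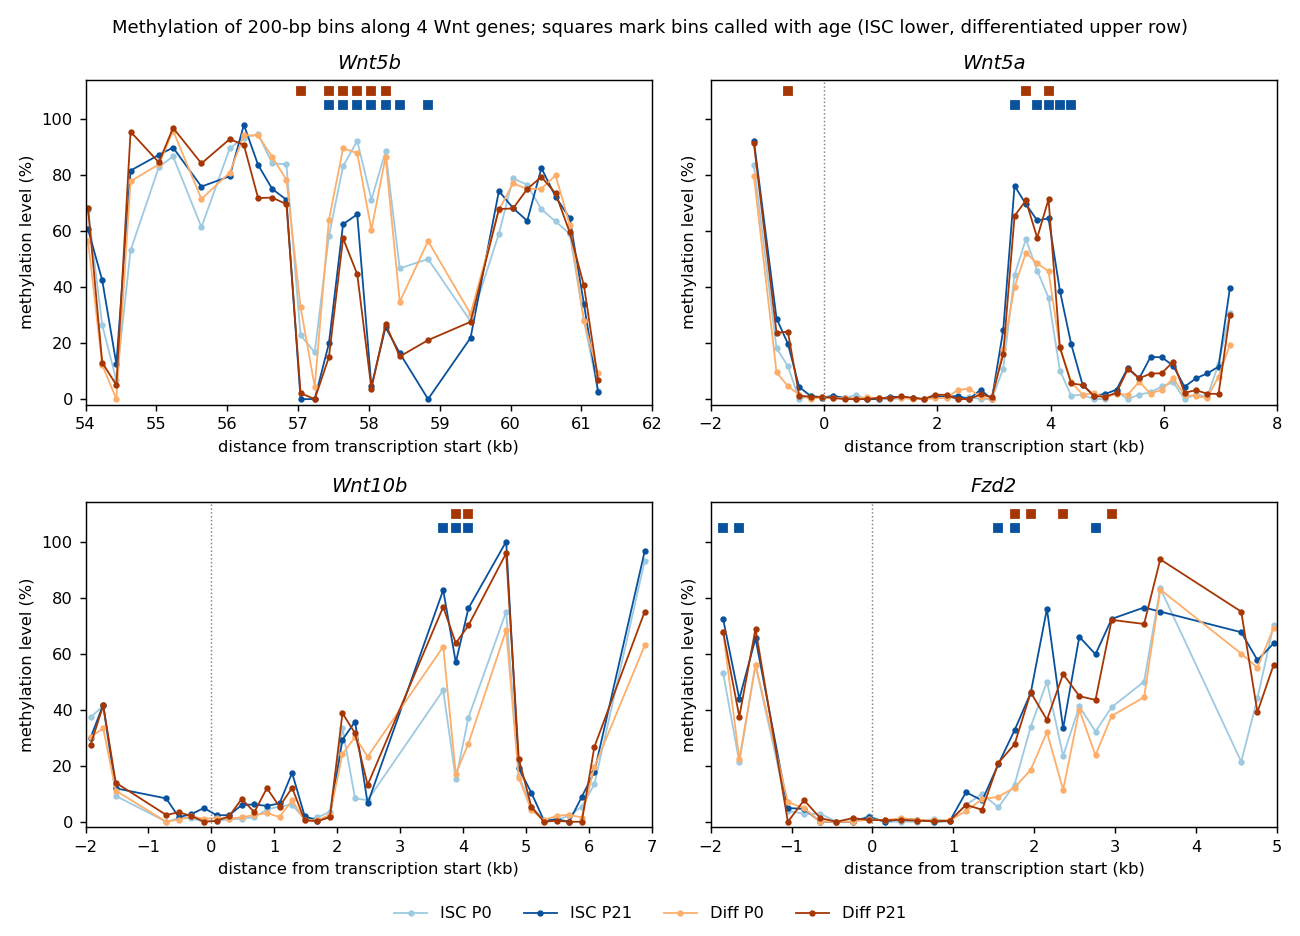
Methylation level (%) of tested 200-bp bins against distance from the transcription start (kb) in Wnt5b, Wnt5a, Wnt10b and Fzd2, with a line per library; squares at the top mark bins called between P0 and P21 in ISCs (lower row) and differentiated cells (upper row), including bins outside the gene that are not counted in the text. The ISC P21 line lies below the ISC P0 line near 58 kb in Wnt5b and above it at the bins called in ISCs in the other 3 genes.

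The frizzled receptors, the membrane proteins that bind Wnt, gained methylation mostly in the last exon. The label "last exon" covers the part of it beyond the promoter window, and in 6 of the 10 genes (Fzd1, Fzd2, Fzd7, Fzd8, Fzd9 and Fzd10) the gene has a single exon that holds the whole coding sequence. Of 98 last-exon bins of the frizzled genes, 14 (14.3%) were called higher in ISC P21, in 6 genes, and 15 in Diff P21, in 8 genes, against 1.68% and 1.57% of all last-exon bins. None was called lower in ISCs and 1 in differentiated cells. With calls divided by the CpGs of each bin, 0 of these gains were called in ISCs and 1 was in differentiated cells. In CGI bins of the members the differentiated libraries were deeper, with medians of 430.5 calls at P0 and 345.0 at P21. Those of ISCs were 166.0 and 192.0. In total calls, Diff P21 was the lowest of all libraries. With calls thinned to the lowest library, 11 gains were called in ISCs and 6 in differentiated cells. The 14 gains of ISCs ranged from 15.4 to 54.2 points with a median of 28.3 points, 7 lay in CGI bins, and 8 held coding bases. Ligands gained at 3 of 158 last-exon bins (1.90%) in ISCs and at 7 (4.43%) in differentiated cells, and antagonists at 0 of 48 in both (Fisher's exact test with the same threshold). The classes were not tested against each other.

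The level of the last exon was higher at P21 in all 10 frizzled genes in ISCs. Pooled over the exon, Fzd2 was at 17.3% (15.6 to 19.3) in ISC P0 and 33.1% (30.9 to 35.3) in ISC P21, and at 13.1% and 24.6% in differentiated cells. Fzd4, the receptor also known for binding Norrin, was at 72.6% (70.0 to 75.0) and 90.5% in ISCs and at 84.1% and 87.9% in differentiated cells. Fzd6 was at 71.5% (65.6 to 76.7) and 87.8% (82.5 to 91.7) in ISCs and at 78.6% and 77.4% in differentiated cells, from 3 bins. With bins shifted by 100 bp the difference of Fzd6 in ISCs was 7.68 points, under the limit of 10. These 3 last exons were called in ISCs (adjusted p = 1.5e-23, 7.1e-29 and 0.00059, Fisher's exact test), and in differentiated cells only that of Fzd2 was (adjusted p = 2.2e-35). Within bins the rise of Fzd4 in ISCs was 9.90 points (SE 1.17), just under the limit, so its call was lost. With calls divided by CpGs, of these 3 in ISCs that of Fzd4 was called and those of Fzd2 and Fzd6 were not.

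Other frizzled genes changed by smaller amounts. Fzd5, which is needed for Paneth cell maturation, was at 13.0% and 19.6% in ISCs and at 8.49% and 13.6% in differentiated cells. Fzd7, a receptor of Lgr5-positive stem cells, was at 7.72% and 12.6% in ISCs and at 10.4% and 10.3% in differentiated cells. Fzd8 was at 5.09% and 13.9% in ISCs and at 2.78% and 8.24% in differentiated cells. Fzd1 was at 25.6% and 32.1% in ISCs and Fzd10 at 8.29% and 14.4%. Fzd9 was at 80.4% and 88.7% in ISCs and at 84.1% and 85.2% in differentiated cells. Each of these pooled differences was under the limit of 10 points. In differentiated cells the coding bins of the Fzd1 last exon went from 16.5% to 20.9% and its untranslated bins from 70.9% to 80.3%. Those of Fzd10 went from 7.87% to 9.93% and, in 1 untranslated bin, from 78.0% to 95.9%.

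Taken within bins, the last-exon difference between ISC P21 and ISC P0 was positive in 10 of 10 frizzled genes, from 2.71 to 13.7 points with a median of 6.79 points, against a median of 0.35 points and 53.8% positive over all 16732 genes. In 9 of the 10 it passed an adjusted p under 0.05, against 7.23% of all genes, with Fzd3 the exception (2.71 points, SE 4.66). In differentiated cells it was positive in 7 of 10, with a median of 4.20 points, and 6 passed, against 8.47% of all genes. Passing at any size depends on the number of calls, for which the sets were not matched. The test within bins also counts neighbouring CpGs of a read as separate calls, and it was not repeated with calls divided by CpGs. The 10 frizzled genes held 98 tested last-exon bins, and the 16732 genes held 75005. Ligands had a median of -0.01 points in ISCs and 9 of 19 positive, and antagonists -0.11 points and 4 of 8. In differentiated cells 14 of 19 ligands were positive, with a median of 0.93 points, and 3 of 8 antagonists, with a median of -0.45 points. Pooled over the exon, 60.6% of the 1653 genes with a CGI bin in the last exon were higher in ISC P21, with a median of 0.59 points, against 10 of 10 frizzled genes and a median of 7.48 points. In differentiated cells 67.1% of those genes were higher, with a median of 0.80 points, against 7 of 10 frizzled genes (70.0%) and a median of 3.94 points. Of the 10 frizzled genes, 7 held such a bin. Among all 693 genes with 1 exon the median was 0.33 points in ISCs and 0.20 points in differentiated cells. None of these sets was matched to the frizzled genes for starting level. In ISC P0 the median last exon was at 21.5% in the frizzled genes and at 86.3% over all genes. It was at 50.1% in genes with a CGI bin there and at 76.4% in genes with 1 exon.

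**Figure D5:**
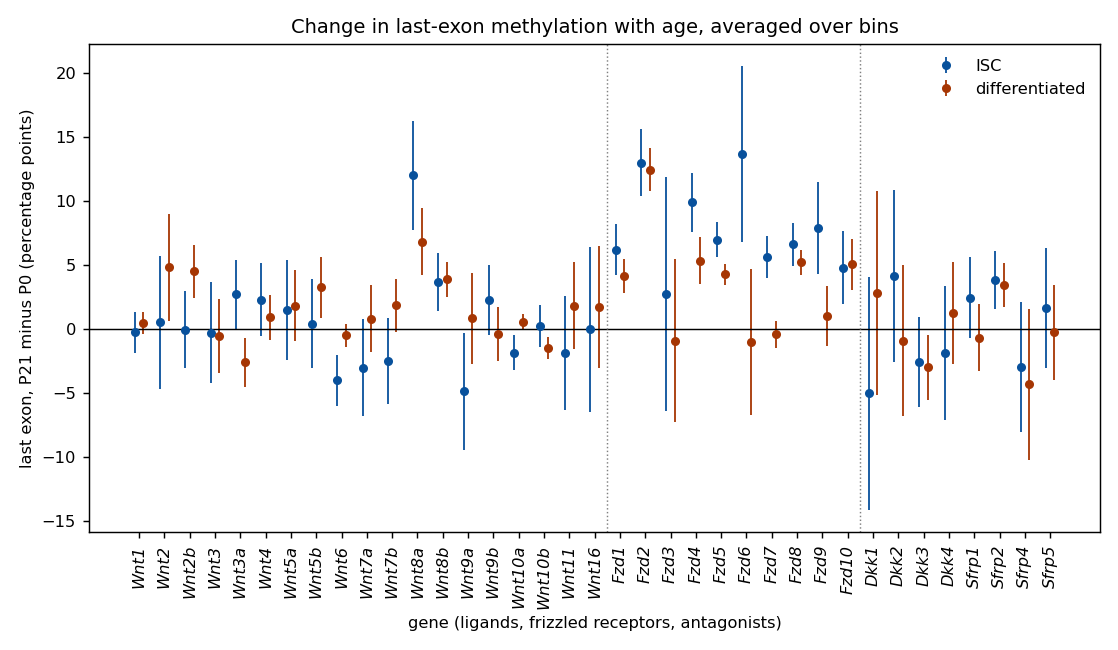
Change in last-exon methylation from P0 to P21 (percentage points, within-bin average) in each of the 37 genes for ISCs (blue) and differentiated cells (brown), with bars of the 95% normal interval, which cover counting error only. The 10 frizzled genes all lie above 0 in ISCs, while ligands and antagonists lie on both sides of 0, with Wnt8a the highest among them.

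Within the exon, the coding part was less methylated than the 3′ untranslated part in Fzd1, Fzd2, Fzd5, Fzd7, Fzd8 and Fzd10 (in Fzd10 from 1 untranslated bin), whereas Fzd4 ran the other way. In Fzd3 each part was 1 bin, and their intervals overlapped in every library. In ISC P0 they were at 85.0% (73.9 to 91.9) and 92.9% (77.4 to 98.0). The called bins lay in either part. In Fzd2, bins with coding bases were at 12.04% in ISC P0 and 25.8% in ISC P21, and bins of the untranslated part at 46.7% and 64.7%. The coding bin whose sequence is given above, with its 16 CpGs, was at 13.3% of 249 calls and 32.6% of 432 calls in ISCs and at 12.2% and 27.6% in differentiated cells. In Fzd5 the coding bins were at 4.27% and 6.93% in ISCs, and all 3 called bins were in the untranslated part, which was at 29.5% and 45.7%. In Fzd4 the coding bins were at 88.8% in ISC P0 and those of the untranslated part at 44.2%. The bin across the end of the coding part, counted with the untranslated part, went from 25.4% to 79.6% in ISCs (adjusted p = 6.6e-13, Fisher's exact test) and from 41.3% to 63.3% in differentiated cells. Fzd8 gained in 3 adjacent CGI bins across the end of the coding part, at 8.41% (5.92 to 11.8) in ISC P0 and 33.9% (29.6 to 38.4) in ISC P21, and at 6.45% and 27.3% in differentiated cells. Fzd7 gained in 2 across that end, at 17.9% and 37.9% in ISCs and at 26.4% and 34.1% in differentiated cells. The whole untranslated part of Fzd7 rose in ISCs, from 22.7% to 33.6%. In differentiated cells it fell from 40.7% (37.2 to 44.3) to 32.4% (29.3 to 35.8), and it held the 1 frizzled last-exon bin called lower.

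Fzd3 had no called bin in its last exon in ISCs. It gained in 3 adjacent bins of intron 1 at the edge of the promoter island (chr14:65879801-65880400), at 42.7% (37.4 to 48.2) in ISC P0 and 71.3% (66.6 to 75.6) in ISC P21. Differentiated cells were at 40.8% (36.3 to 45.6) and 70.8% (65.8 to 75.4), and all 3 bins were called in both populations. The bin shown above went from 26.8% to 69.5% in ISCs. Further into the gene, 3 bins of Fzd3 lost methylation in ISCs.

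Over all genes, last exons were called as gains in 3.14% and losses in 2.87% in ISCs, and in 2.70% and 3.23% in differentiated cells; gains within bins were 3.20% and 2.58%. Bodies were called as gains in 0.878% and losses in 1.82% in ISCs, and in 0.815% and 1.84% in differentiated cells; gains within bins were 0.770% and 0.713%. Of the members, 4 of 37 last exons and 2 of 30 bodies were called in ISCs (within bins 3 and 2), and 2 and 1 in differentiated cells (within bins 1 and 0), all as gains.

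The change with age was compared between the populations by a Wald test of the difference of the differences. Of the member regions it was called for the Fzd4 body, the Fzd4 last exon and the Fzd6 last exon, against 2.55% of promoters, 1.20% of bodies and 2.27% of last exons over all genes. With calls divided by CpGs, and with calls thinned to the lowest library, 0 of the member regions were called. In Fzd6 the change in differentiated cells minus that in ISCs was -17.6 points (SE 4.89, Wald chi-square test, adjusted p = 0.016). Within bins it was -14.7 points (SE 4.54, Wald chi-square test, adjusted p = 0.0498), against 1.55% of last exons called within bins. In Fzd4 the pooled values were -17.3 points (SE 3.63) for the body and -14.1 points (SE 1.89) for the last exon, but within bins they were -6.60 points (SE 2.18) and -4.56 points (SE 1.49), so neither passed the limit of 10 points. Fzd7 came to -6.03 points within bins (SE 0.983, Wald chi-square test, adjusted p = 5.6e-07), also under that limit, from a rise of 5.62 points (SE 0.825) in ISCs and a difference of -0.41 points (SE 0.534) in differentiated cells. The Fzd4 body, of 5 bins, was at 38.2% and 50.8% in ISCs and at 45.6% and 40.8% in differentiated cells, and within bins both populations were higher at P21, by 10.7 points (SE 1.66) and 4.15 points (SE 1.42).

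Of 534 bins of the antagonists, 7 gained (1.31%) and 2 lost (0.375%) methylation in ISCs, against 1.07% and 1.48% of all bins, and 4 of the gains were in Sfrp2. In differentiated cells 8 gained and 5 lost (0.936%), against 0.992% and 1.86% of all bins. Of those gains 4 were among 73 promoter bins (5.48%), against 1.20% of all promoter bins, and 3 were among 48 CGI bins (6.25%), against 1.22% of all CGI bins. The 4 promoter gains lay in 3 genes. The 3 CGI gains were among these same promoter bins, in Sfrp2 and Sfrp4, so the shares overlap. With calls divided by CpGs, the only gain called in differentiated cells over all members was in a frizzled last exon. In ISCs 1 of the 73 promoter bins (1.37%) and 1 of the 48 CGI bins (2.08%) gained. Sfrp2, which is often hypermethylated in colorectal cancer, gained in 2 adjacent bins of intron 1 (chr3:83571201-83571600), at 48.4% (42.6 to 54.2) in ISC P0 and 68.2% (63.1 to 72.9) in ISC P21, and at 43.6% (37.9 to 49.3) and 66.8% (61.5 to 71.7) in differentiated cells. The promoter of Sfrp2 was at 7.58% and 8.93% in ISCs. Those of Sfrp1 and Dkk2 were between 0.81% and 1.20% in every library, and that of Dkk1, the founding Dickkopf antagonist, between 3.87% and 5.68%. Outside promoters, the Sfrp5 body was at 32.9% and 31.0% in ISCs and that of Dkk4 at 87.9% and 88.5%.

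ISCs and differentiated cells of the same age, as sorted by the mosaic reporter, differed at few bins. At P0, 10 member bins were called (6 higher and 4 lower in differentiated cells; 0.374%, against 0.508% of all bins), and at P21 6 were (2 higher and 4 lower; 0.224%, against 0.182%). No 2 of them were adjacent in the same gene and comparison. The largest difference at P0 was in Dkk2, at 96.3% in ISC P0 and 33.3% in Diff P0, and the largest at P21 was also in Dkk2, at 88.9% in ISC P21 and 53.2% in Diff P21, both in single bins of the body. The bin of P0 had as few as 15 calls in a library, and that of P21 as few as 47. In Wnt2, a promoter bin at -315 bp from the start was at 2.22% in ISC P0 and 37.9% in Diff P0, and at 0% and 8.82% at P21. It was among 3 ligand bins called higher in Diff P0, which had as few as 29 calls in a library.

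Pooled over regions, only the Fzd4 last exon was called between the populations at P0 (11.5 points higher in Diff P0, adjusted p = 1.6e-12, Fisher's exact test), and no member region at P21. Within bins the Fzd4 difference was 1.97 points (SE 1.16), and by that test no member region was called at either age. With calls divided by CpGs, the Fzd3 promoter was called at both ages and the Fzd4 last exon at P0. With bins shifted by 100 bp the Dkk1 body was called at P0 besides, and with promoters of 500 bp to either side the Fzd4 body and the Wnt8b promoter were called at P21. Over all genes the pooled calls were made for 4.62% of promoters, 1.96% of bodies and 2.81% of last exons at P0, and for 3.0%, 1.43% and 1.93% at P21. The median promoter difference of the 37 within bins was -0.06 points at both ages. Pooled it was -0.78 points at P0, with 27 of 37 lower in differentiated cells, and -0.59 points at P21, with 31 lower. Over all genes the pooled medians were -0.95 and -0.84 points.

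The other genes of the pathway were 44 listed by role. They were further secreted antagonists and agonists, ligand-processing genes, co-receptors, intracellular components, feedback regulators and targets. These genes had more losses than gains, as all bins of the genome did, with larger shares of both than over all bins. Of their 7731 bins, 176 (2.28%) gained and 226 (2.92%) lost methylation in ISCs, and 169 (2.19%) and 279 (3.61%) did in differentiated cells, against 1.07%, 1.48%, 0.992% and 1.86% of all bins. Of 44 promoters 1 (Kremen2) was called higher in ISCs and 0 lower by Fisher's exact test, against 1.79% and 2.45% of all promoters. Of 43 bodies 1 was higher and 2 lower, against 0.878% and 1.82%, and of 42 last exons 3 and 3, against 3.14% and 2.87%. In differentiated cells 1 promoter was higher, 2 bodies lower, and 1 last exon higher and 3 lower, against 1.57%, 1.84%, 2.70% and 3.23%. Within bins, the Kremen2 promoter and Sp5 last exon kept a call as higher in ISCs. The Axin2 and Rnf43 bodies and the Rnf43 and Myc last exons kept theirs as lower, and no other region was called in ISCs. The feedback inhibitor Axin2 had a body level of 71.4% in ISC P0 and 52.9% in ISC P21, and of 68.8% and 54.5% in differentiated cells. Rnf43, the ubiquitin ligase that removes frizzled receptors from the cell surface, had a body level of 49.7% and 36.8% in ISCs and of 50.2% and 38.1% in differentiated cells. Within bins both fell in both populations, with differences of -15.04 and -13.8 points for Axin2 and of -12.9 and -10.4 points for Rnf43 in ISCs and differentiated cells.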

How the data were processed

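WGBS libraries of 4 groups were analysed from calls per cytosine. The authors deposited, for each CpG, the counts of methylated and unmethylated calls and the methylated fraction they form. Per the labels, the submitters' processing notes name Bismark, Bowtie and mm9, with versions not given in the sources used here. Duplicate removal is likewise not given, so deep bins may hold PCR copies, and intervals cover counting error only.

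Calls of both strands were summed per mm9 CpG and pooled in 200-bp autosomal bins with at least 2 CpGs and 10 calls in all 4 libraries. Promoters (1 kb to either side of the start), last exons and bodies followed, by bin midpoint in that order of precedence, the GENCODE transcript with the longest coding sequence. Genomic sequences were read from the mm9 (NCBIM37) assembly. Levels are percentages of calls with 95% Wilson intervals. Libraries were compared by Fisher's exact test (2-sided), adjusted by Benjamini-Hochberg over all bins, or over all genes for each kind of region, and were called at an adjusted p under 0.05 with over 15 points for bins and over 10 points for regions. The change with age was compared between populations by a Wald test. A test within bins (Cochran-Mantel-Haenszel) was added after seeing the data. The scripts were tested on simulated data and used Python 3.11.15, numpy 2.4.6, pandas 2.3.3, scipy 1.17.1, statsmodels 0.14.6, numba 0.67.0 and matplotlib 3.10.9.

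The members and gene lists were chosen with earlier results of these data known. Members named by rule had a run of at least 2 called bins in ISCs, were among the 3 of their class with the greatest change with age in ISCs of a region, had a promoter over 20%, or had a region called between populations. Fzd1, Fzd5, Fzd10, Wnt1, Wnt2, Wnt7b, Wnt9b, Wnt16 and Sfrp1 were named after their values were seen, and so were the genes named from the other pathway list.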

Additional observations from a re-analysis of the deposited data

Results flagged for a closer look

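The change of methylation between P0 and P21 was called as different between the populations in 3 regions of the Wnt genes, by the Wald test of the difference itself. All 3 calls were lost with calls divided by CpGs and with calls thinned to the lowest library. The pooled change in differentiated cells minus that in ISCs was -17.3 points in the Fzd4 body, -14.1 points in the Fzd4 last exon and -17.6 points in the Fzd6 last exon. Taken within bins, these were -6.60 points (SE 2.18), -4.56 points (SE 1.49) and -14.7 points (SE 4.54), and only that of Fzd6 was over 10 points (Wald chi-square test, adjusted p = 0.0498). The bins of the Fzd6 last exon were 3.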

How the results depend on the processing

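No paired analysis was made, because each group has 1 library and the sources do not say whether the populations of an age shared a pool of animals. The bins called were 88 in ISCs and 100 in differentiated cells, and 10 at P0 and 6 at P21 between the populations. In that order they came to 43, 40, 5 and 2 with over 30 points, to 358, 298, 235 and 241 with over 15 points and no test (each below the share of all bins, at 13.5%, 12.1%, 10.6% and 9.53%), and to 1, 4, 0 and 0 with calls divided by CpGs. The last 3 comparisons came to 48, 2 and 2 with calls thinned to the lowest library. With 4 CpGs per bin, 65 were called in differentiated cells and 6 at P0, and with bins shifted by 100 bp, 3 at P21. Frizzled last-exon gains (14 in ISCs, 15 in differentiated cells) came to 6 and 6 with over 30 points, to 30 and 23 without a test and to 0 and 1 with calls divided by CpGs, and those of differentiated cells to 6 with thinned calls.

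Regions called were 7 in ISCs, 5 in differentiated cells, 1 at P0, 0 at P21 and 3 for the difference between populations (Fisher's exact and Wald tests). With over 15 points the first 3 came to 4, 1 and 0. With calls divided by CpGs all 5 came to 2, 3, 2, 1 and 0. With thinned calls, differentiated cells had 3, P0 0 and the difference 0. Within bins they had 2, 0 and 1. With shifted bins P0 had 2, and with promoters of 500 bp to either side P21 had 2 and the difference 5. The median promoter level (ISC P0, ISC P21, Diff P0, Diff P21) was 7.75%, 6.19%, 5.54% and 7.07% as a mean of bins and 0.81%, 0.95%, 0.59% and 1.02% with those narrower promoters. As a mean of bins, bodies had medians of 66.6%, 63.97%, 66.6% and 64.8% and last exons of 73.4%, 74.6%, 72.6% and 75.02%. The cause of these shifts was not tested. Of 151 values under alternatives for these main results, 58 moved by more than 1.5 times (counts) or by more than the counting error (levels) and are given here. The other 93 include 63 and 66 bins in ISCs with 4 CpGs per bin and with thinned calls. The Fzd4 body in differentiated cells turned from -4.76 points pooled to 4.15 points within bins, and the median body change of the members in ISCs from -0.13 to 0.51 points. Depth limits single bins, which held a median of 69.0 calls in ISC P0, and 1 library per group gives no measure of variation between animals.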

Other observations

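Some other genes of the pathway changed at their last exons. Of 42, 3 were called higher and 3 lower in ISCs by Fisher's exact test, against 3.14% and 2.87% of all last exons. In differentiated cells 1 was higher and 3 were lower, against 2.70% and 3.23%. Myc, a transcription factor and target of the pathway, was at 81.8% in ISC P0 and 53.5% in ISC P21, and at 81.1% and 58.5% in differentiated cells, from 3 bins. Within bins it fell by 28.4 points (SE 2.24) and 22.3 points (SE 1.88). Sp5, another target, was at 3.24% and 18.1% in ISCs and at 1.59% and 8.94% in differentiated cells, and within bins it rose by 13.2 points (SE 0.799) and 6.82 points (SE 0.389). Kremen2, a receptor for Dickkopf proteins, had a promoter level of 17.3% and 32.2% in ISCs and of 19.3% and 37.1% in differentiated cells. By contrast, the body of Lgr5, the gene whose regulatory sequences drive the reporter, was at 72.8% and 73.1% in ISCs and at 74.1% and 73.7% in differentiated cells. These genes were named after their values were seen.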
